A study of Sparassis latifolia with 18 samples.

Results

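Mycelium of the edible brown-rot fungus Sparassis latifolia that had been in contact with pine sawdust for 1 d (1d) was compared with mycelium that had received none (CK). The genes of the deposited FPKM table were compared (fragments scaled by transcript length and by the mapped fragments of the library), in 3 libraries per group. Of its 1100 genes, 1093 passed a filter on low values and were tested. The groups were 1d (libraries T-1d-1, T-1d-2 and T-1d-3) and CK (CK-1, CK-2 and CK-3), and these 6 of the 18 RNA-seq libraries of the series were chosen by their labels. The other 12 libraries, 3 each with 1 h (1h), 6 h (6h), 5 d (5d) and 10 d (10d) of pine sawdust inducing (PSI), shared the estimate of the spread. All cultures were of the one strain SP-C, grown in shaken liquid medium in darkness, and they were collected together and filtered to remove the sawdust, so that a time is the length of PSI. The table holds 1100 genes, 985 with EVM identifiers of the genome and 115 named as new genes, and the rule by which they were chosen from all genes is not given in the sources used here. Counts of differentially expressed genes (DEGs) therefore cover these genes alone. The study gives the reads of each library, but FPKM values keep no read counts per gene. The precision that counting gives a gene is therefore unknown, and the errors come from the spread between libraries.

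Brown-rot fungi take up the cellulose and hemicellulose of wood and leave most of the lignin behind in modified form. Early in decay they rely on small oxidants made from hydrogen peroxide and iron, for which oxidases of the glucose-methanol-choline (GMC) family supply peroxide, and secreted hydrolases act on the opened wall. Pine wood also holds resin acids and other compounds that slow the growth of many fungi, and monooxygenases, dioxygenases and transporters are the protein families that fungi commonly use to convert or export foreign compounds. RNA of a whole mycelium was measured, so a change in each hypha and a change in the share of hyphae that express a gene cannot be told apart.

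The study set CK-1 and T-1d-3 aside for their correlation, and both stood apart here as well. On log2(FPKM + 1), CK-1 had a Pearson r of 0.955 and 0.956 with its partners, against 0.995 between CK-2 and CK-3, and T-1d-3 had 0.951 and 0.970, against 0.987 between T-1d-1 and T-1d-2. Each r was taken across genes, and genes do not replicate one another. CK-1 lay over 2-fold below the mean of its partners in 111 genes and above it in 32, and T-1d-3 lay below in 64 genes and above in 43. T-1d-3 correlated nearly as well with the mean profiles of 6h (0.954) and 5d (0.954) as with that of its own partners (0.963). The results below are therefore also given without both libraries, which leaves T-1d-1 and T-1d-2 against CK-2 and CK-3. Both were left out for standing apart in these same data. That choice narrows the spread, so adjusted p-values without them are likely too small. The same holds below wherever libraries that stood apart were left out or given less weight.

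After 1 d of PSI, 71 genes were higher and 158 lower than in CK among the 1093 genes tested, which is 6.5% and 14.5% of them and 21% together. A gene was called at a fold above 2 and a Benjamini-Hochberg adjusted p under 0.01 in limma on log2(FPKM + 1). The genes that rose had a median log2 fold change of 1.34, those that fell one of -1.44, and all genes tested one of -0.09. Over 4-fold changes were seen in 8 higher and 25 lower genes, and over 8-fold changes in 2 and 7. Both counts of rises include EVM0005970, listed at 0 in all CK libraries. The falls over 4-fold include EVM0002763, listed at 0 in all 1d libraries. By their median level, the genes that fell were less abundant than those that rose. The median of group means of the falls was 10.6 FPKM at 1d and 32.5 FPKM in CK. That of the rises was 154 FPKM at 1d and 53.0 FPKM in CK. Over all genes tested it was 23.9 FPKM at 1d and 24.2 FPKM in CK, so in CK the falls lay above that median. Of the called genes, 69 of 71 and 155 of 158 had all 1d libraries beyond all CK libraries, which held for 20.5% (higher) and 29.8% (lower) of all genes tested.

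The balance of rises and falls depended on the scaling. Quantile normalization moved the median log2 fold change of all genes to 0.08 and gave 89 higher and 114 lower genes, so that 43.8% of the calls were rises, against 31.0% with the deposited values. Centring each library on its median gave 75 and 152.

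**Figure D1:**
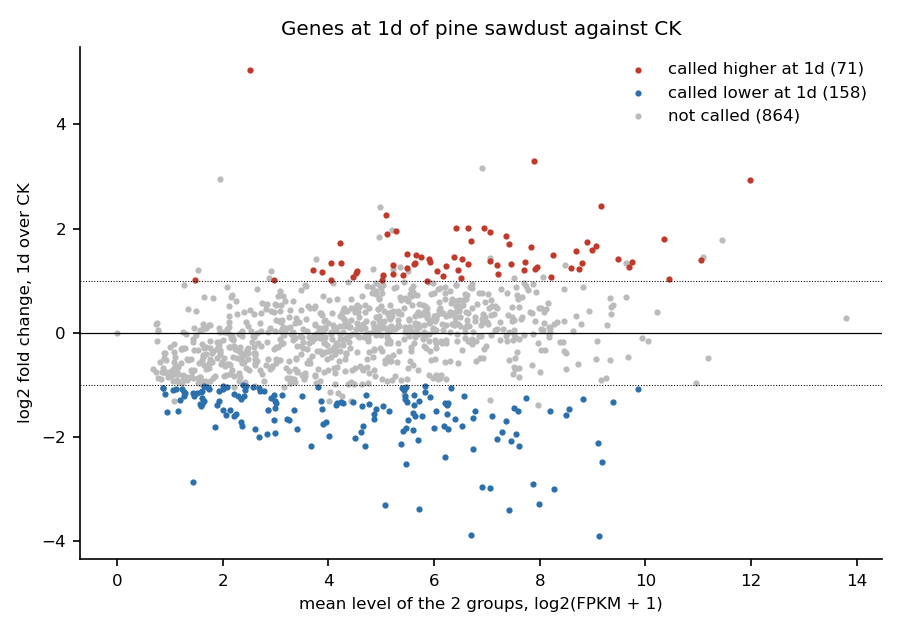
Each point is 1 of the 1093 genes tested, with the mean level of the 1d and CK groups, as log2(FPKM + 1), on the x axis and the log2 fold change of 1d over CK on the y axis. Red points are the 71 genes called higher, blue points the 158 called lower and grey points the rest, and dotted lines mark a 2-fold change. The falls reach further down the abundance scale than the rises, and 1 red point near 5 on the y axis is a gene listed at 0 in all CK libraries.

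The gain and loss of transcripts was also visible in the summed FPKM. The 71 genes that rose held 33.4%, 30.0% and 24.1% of the summed FPKM of the table in T-1d-1, T-1d-2 and T-1d-3, against 10.1%, 10.5% and 10.5% in CK-1, CK-2 and CK-3. The 158 genes that fell held 4.03%, 3.99% and 5.38% in the 1d libraries, against 19.4%, 21.4% and 21.6% in the CK libraries. A single gene, EVM0008715, made up 11.6%, 8.44% and 5.82% at 1d, against 1.47%, 1.20% and 1.32% in CK. The genes were chosen by the same contrast, so these shares describe the size of the change and test nothing. In each case T-1d-3 lay closest to CK.

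Without CK-1 and T-1d-3, 79 of 1088 genes were higher and 191 lower (7.26% and 17.6%, and 24.8% together). Of the 71 rises, 59 were called in both fits and 12 were not called without these libraries, and 20 others were added. Of the 158 falls, 148 were called in both and 10 were lost, with 43 added. None of them was called in the opposite direction. T-1h-3 and T-5d-2 were excluded in the study as well. With these left out too, 93 genes were higher and 199 lower (8.55% and 18.3% of 1088, and 26.8% together). With each of the 6 libraries left out in turn, 41 of the 71 rises and 118 of the 158 falls were called every time. A fit of the 6 libraries alone called 33 genes higher and 123 lower, and 16 of the 41 named genes called against CK with all libraries were not called in it.

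**Figure D2:**
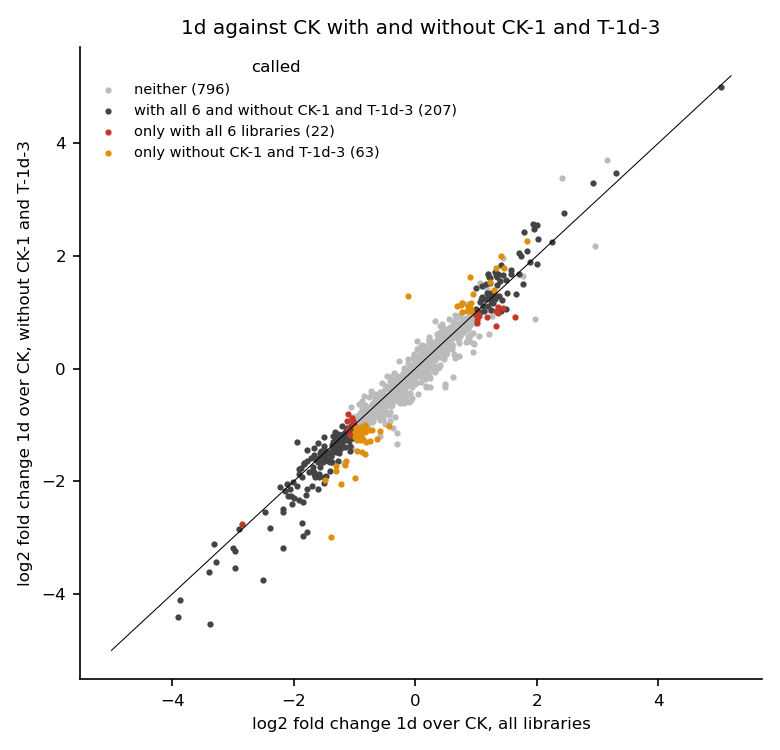
Each point is 1 gene tested in both fits, with the log2 fold change of 1d over CK from all libraries on the x axis and that without CK-1 and T-1d-3 on the y axis. The line marks equal values. Dark points are called in both fits (207), red points only with all libraries (22), orange points only without the 2 libraries (63) and grey points in neither, and the red and orange points lie mostly near the 2-fold limits.

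The 2 libraries were not neutral for the called genes. T-1d-3 lay above both of its partners in 60.1% of the 158 genes that fell, against 44.8% of all genes tested, and below both in 56.3% of the 71 genes that rose, against 35.7% of all genes. It was thus closer to CK than its partners were in most of them. CK-1 lay below both other CK libraries in 56.3% of the rises, 45.6% of the falls and 51.1% of all genes. What set the 2 libraries apart was not tested.

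The largest rise with a level above 0 in CK was that of EVM0003033, which has no annotation in the tables of the study. It had 683, 803 and 734 FPKM in the 1d libraries, against 94.4, 63.2 and 68.1 FPKM in CK. All 1d libraries were far above all CK libraries, and T-1d-3 lay between its partners (log2 fold change 3.30 ± 0.14, SE, adjusted p = 2.53e-10; 3.48 without CK-1 and T-1d-3). EVM0008715, the most abundant gene that changed, had 15008, 11208 and 7526 FPKM at 1d, against 1648, 1263 and 1389 FPKM in CK. Its 1d values spread over a wide range, with T-1d-3 the lowest, and all lay above CK (2.92 ± 0.29, adjusted p = 1.27e-06; 3.29 without the 2 libraries).

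The next rises differed in how far T-1d-3 followed its partners. EVM0012106 had 1986, 1575 and 624 FPKM at 1d, against 176, 267 and 255 FPKM in CK, with T-1d-3 far below its partners yet above every CK library (log2 fold change 2.44 ± 0.31, adjusted p = 1.50e-05). EVM0012824 had 83.2, 80.1 and 57.4 FPKM at 1d, against 11.004, 17.0 and 15.99 FPKM in CK, and here the 1d libraries lay close together (2.25 ± 0.22, adjusted p = 7.50e-07). EVM0002859 had 135, 165 and 214 FPKM at 1d, against 42.7, 40.8 and 40.3 FPKM in CK, and T-1d-3 was its highest library (2.00 ± 0.16, adjusted p = 1.31e-07).

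In 3 further genes T-1d-3 stood far below its partners. EVM0013009 had 264, 287 and 80.7 FPKM at 1d, against 28.7, 54.8 and 55.4 FPKM in CK. EVM0001276, which the study annotated only by similarity to a protein of unknown function, had 357, 314 and 110.3 FPKM at 1d, against 57.9, 55.4 and 57.3 FPKM in CK. EVM0007047 had 111, 113 and 24.6 FPKM at 1d, against 12.6, 17.96 and 20.5 FPKM in CK. The lowest 1d library of each was T-1d-3 and the groups did not overlap. Their log2 fold changes were 2.02 ± 0.36, 2.01 ± 0.34 and 1.96 ± 0.40, and without CK-1 and T-1d-3 they were 2.30, 2.55 and 2.49. In the fit of the 6 libraries none of the 3 was called (adjusted p = 0.0232, 0.0121 and 0.0372 in this order).

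Of the remaining large rises, EVM0006343 had 86.3, 67.9 and 42.6 FPKM at 1d, against 10.8, 20.4 and 19.4 FPKM in CK, and EVM0006917 had 367, 388 and 197 FPKM at 1d, against 76.2, 94.3 and 81.3 FPKM in CK. Neither overlapped between the groups (log2 fold changes 1.89 ± 0.40 and 1.85 ± 0.25). EVM0000336, among the 3 most abundant genes that changed, had 2240.4, 2444 and 2013 FPKM at 1d, against 1395, 444 and 424 FPKM in CK. Its CK libraries did not agree, since CK-1 was over 3-fold above CK-2 and CK-3. The change was 1.80 ± 0.47 (adjusted p = 0.0053) with all libraries and 2.43 (adjusted p = 9.17e-04) without CK-1 and T-1d-3. It missed the threshold when T-1d-1, T-1d-2, T-1d-3, CK-2 or CK-3 was left out alone (adjusted p 0.0109 to 0.0315), after quantile normalization (1.497, adjusted p = 0.0127) and in the fit of the 6 libraries (adjusted p = 0.0249). The third of the most abundant genes, EVM0007108, had 3644, 3396 and 3198 FPKM at 1d, against 1537, 1178 and 1204 FPKM in CK (1.39 ± 0.20, adjusted p = 5.61e-05), and it was not called after quantile normalization (log2 fold change 0.59, adjusted p = 0.034).

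The largest fall was that of EVM0012313, also without annotation. It had 108, 109 and 220.0 FPKM at 1d, against 1609, 2318 and 2352 FPKM in CK, so that an abundant transcript of CK mycelium was at 6.96% of its CK mean after 1 d (log2 fold change -3.90 ± 0.26, adjusted p = 1.85e-08). T-1d-3 was about 2-fold above its partners and CK-1 the lowest CK library, and without both the change was -4.41.

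A tight spread in CK and a fall in every 1d library marked 4 further genes. EVM0002080 had 21.1, 20.9 and 37.9 FPKM at 1d, against 419, 363 and 389 FPKM in CK (-3.88 ± 0.21, adjusted p = 1.77e-09). EVM0004925 had 43.4, 46.5 and 66.8 FPKM at 1d, against 526, 554 and 569.7 FPKM in CK (-3.40 ± 0.15, adjusted p = 2.53e-10). EVM0005779 had 67.4, 71.8 and 102 FPKM at 1d, against 814, 791 and 737 FPKM in CK (-3.29 ± 0.22, adjusted p = 1.76e-08). In each, T-1d-3 was the highest 1d library and still several-fold below the lowest CK library. The same held for EVM0011191, with 94.1, 93.7 and 139 FPKM at 1d, against 858, 863 and 868 FPKM in CK (-3.001 ± 0.18, adjusted p = 6.59e-09). Without CK-1 and T-1d-3 the changes were -4.10, -3.61, -3.44 and -3.19 in this order, each a larger fall.

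CK-1 departed from its partners in the next falls. EVM0003180 had 7.95, 7.71 and 12.3 FPKM at 1d, against 172, 81.0 and 70.8 FPKM in CK, and EVM0012358 had 73.2, 82.4 and 99.2 FPKM at 1d, against 799.8, 557 and 574 FPKM in CK. CK-1 was the highest CK library of both, and their changes of -3.31 ± 0.35 and -2.90 ± 0.24 became smaller without CK-1 and T-1d-3 (-3.12 and -2.85). EVM0002333 had 49.0, 30.0 and 58.1 FPKM at 1d, against 209.9, 446 and 469 FPKM in CK, and EVM0007167 had 41.6, 37.0 and 47.6 FPKM at 1d, against 259, 365 and 388 FPKM in CK. Here CK-1 was the lowest CK library, and the changes of -2.97 ± 0.46 and -2.96 ± 0.25 became larger (-3.54 and -3.23).

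Of the last named falls, EVM0003088 had 8.17, 9.54 and 27.6 FPKM at 1d, against 60.5, 222 and 229 FPKM in CK. Both T-1d-3 and CK-1 lay towards the other group, and the fall of -3.38 ± 0.48 (adjusted p = 4.07e-05) was -4.52 without them. EVM0007207 had 3.47, 7.88 and 61.2 FPKM at 1d, against 63.5, 83.1 and 83.7 FPKM in CK. T-1d-3 lay just under the lowest CK library, and its partners lay many-fold lower. The call of EVM0007207 (-2.51 ± 0.69, adjusted p = 0.00651) held when T-1d-3 was left out but missed the threshold without T-1d-1, T-1d-2, CK-1, CK-2 or CK-3 alone (adjusted p 0.0113 to 0.038). Without CK-1 and T-1d-3 together it was -3.74 (adjusted p = 3.36e-05).

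**Figure D3:**
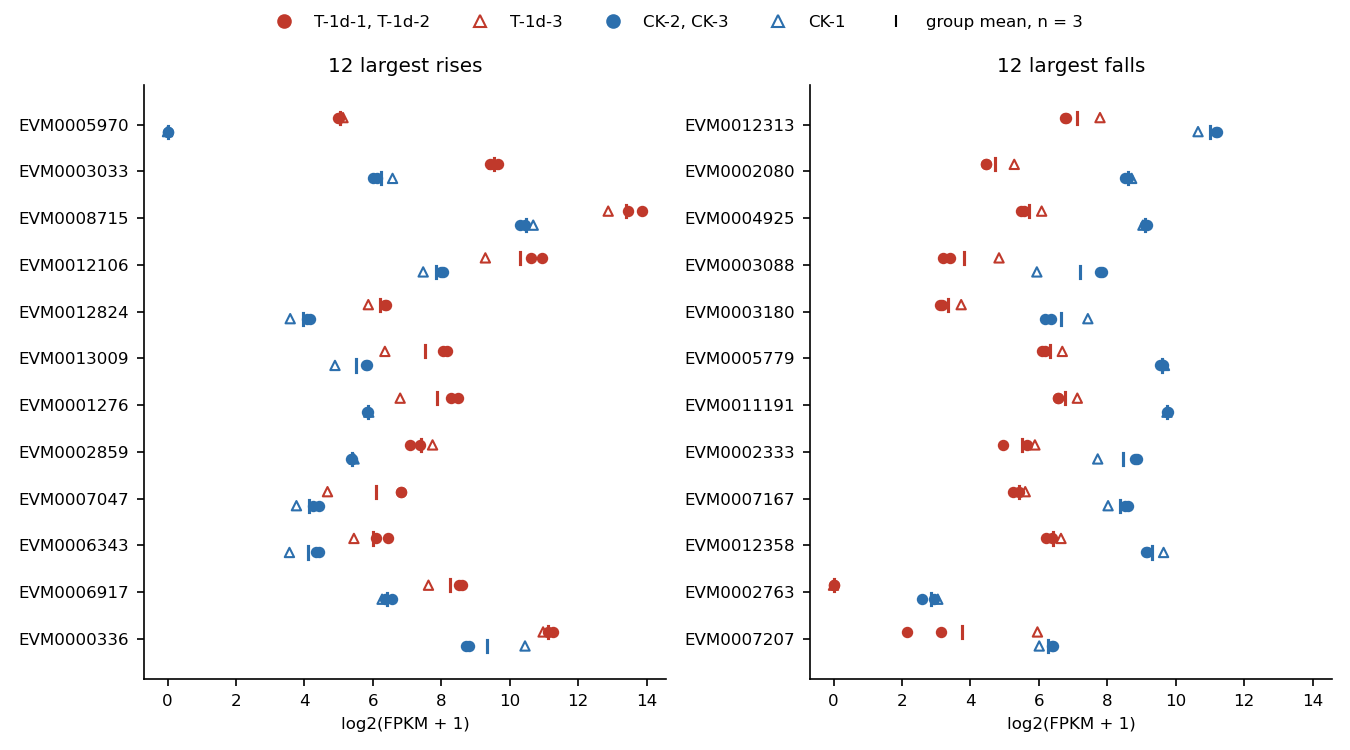
The 12 largest rises (left) and the 12 largest falls (right) among genes called with no overlap between the groups are shown with 1 row per gene and the level as log2(FPKM + 1) on the x axis. In each row, 1d libraries (red) stand above CK libraries (blue), open triangles are T-1d-3 and CK-1, filled circles the other libraries, and a vertical bar is the mean of the 3 libraries on this scale. The triangles of T-1d-3 lie on the CK side of the red circles in most rows, as in EVM0007207, where T-1d-3 had 61.2 FPKM and its partners 3.47 and 7.88 FPKM.

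In 3 genes 1 group was listed at 0 throughout, and for these no fold is given. EVM0005970 had 31.4, 30.3 and 34.0 FPKM in the 1d libraries and was listed at 0 in the 3 CK libraries, and it was called with and without the 2 libraries (adjusted p = 1.87e-04 and 0.00201). Over the 18 libraries, however, it was either under 1 FPKM (8 libraries, 7 of them at 0) or between 27.4 and 34.0 FPKM (10 libraries), also within a group: in 6h, 1 library had 29.7 FPKM and both others 0. EVM0002763 was listed at 0 in the 3 1d libraries and had 7.27, 4.99 and 6.67 FPKM in CK, and it was at 0 in 11 of the 18 libraries. Its call (adjusted p = 0.00356) was lost without CK-1 and T-1d-3 (adjusted p = 0.0229), and also when T-1d-1, T-1d-2, T-1d-3, CK-1 or CK-3 was left out alone (adjusted p 0.0102 to 0.0132). EVM0010427, chosen after its values were seen, had 0, 19.4 and 22.0 FPKM at 1d and was listed at 0 in the 3 CK libraries. It was not called (adjusted p = 0.0342), and it was at 0 in 5 of the 18 libraries and between 15.6 and 25.4 FPKM in the other 13.

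Genes with a described protein family came only from the annotation tables of the study. The study chose the genes of these tables on these libraries, so their counts are not independent evidence, and single members were picked after their values were seen where the rule for named genes did not take them. Of the secreted proteins and wall hydrolases, 3 of 4 measured genes rose, against 6.5% of all genes tested (median log2 fold change 1.28, against -0.09 over all genes). The count was 3 without CK-1 and T-1d-3 and under both other scalings as well, but only 1, EVM0007359, was called in the fit of the 6 libraries alone. Cerato-platanins are small secreted proteins of fungi that associate with the hyphal wall. The cerato-platanin gene EVM0010971 had 300.2, 366 and 389 FPKM at 1d, against 276, 114 and 104 FPKM in CK. CK-1 was more than 2-fold above its partners and lay just under the lowest 1d library (1.23 ± 0.33, adjusted p = 0.00587; 1.60 without the 2 libraries). The call was lost when T-1d-2, T-1d-3, CK-2 or CK-3 was left out alone (adjusted p 0.0203 to 0.0372), in the fit of the 6 libraries (0.0419) and with the replicate number as a block (0.0111).

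Glycoside hydrolases of family 28 cleave the polygalacturonan of pectin. The family member EVM0007359 had 80.0, 85.7 and 61.2 FPKM at 1d, against 42.0, 24.03 and 25.1 FPKM in CK. The groups did not overlap, and the call held without each library in turn (1.32 ± 0.19, adjusted p = 4.07e-05; 1.71 without the 2 libraries). EVM0005939, whose closest annotated protein is an extracellular serine-rich protein of Arthroderma benhamiae, had 198, 398 and 309.8 FPKM at 1d, against 152, 66.2 and 68.0 FPKM in CK (1.70 ± 0.42, adjusted p = 0.00331; 2.05 without the 2 libraries). CK-1 was again the highest CK library, and the call was lost without T-1d-2, T-1d-3, CK-2 or CK-3 alone (adjusted p 0.0109 to 0.0193) and in the fit of the 6 libraries (0.0166). The fourth member, the aspartyl protease gene EVM0010008, had 2.64, 4.38 and 5.00 FPKM at 1d, against 8.34, 5.75 and 5.62 FPKM in CK (-0.61 ± 0.22, adjusted p = 0.0317).

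Of the peroxide-related genes, 1 of 3 rose (6.5% of all genes). GMC oxidoreductases are flavoenzymes that oxidize alcohols or sugars, many of them with release of hydrogen peroxide, and catalase breaks hydrogen peroxide down. The GMC gene EVM0000788 had 369.5, 433 and 700.5 FPKM at 1d, against 281, 133 and 133 FPKM in CK. T-1d-3 was the highest 1d library and CK-1 the highest CK library, yet the groups did not overlap (1.49 ± 0.36, adjusted p = 0.00261; 1.58 without both). The call was lost without T-1d-3, CK-2 or CK-3 alone (adjusted p 0.0149 to 0.0157) and in the fit of the 6 libraries (0.0212). The other GMC gene, EVM0010522, had 112, 172 and 199 FPKM at 1d, against 210.1, 143 and 148 FPKM in CK (-0.07 ± 0.19, adjusted p = 0.795). The catalase gene EVM0011998 had 11.4, 12.1 and 14.2 FPKM at 1d, against 18.9, 14.6 and 15.8 FPKM in CK (-0.36 ± 0.19, adjusted p = 0.12).

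Flavin-dependent monooxygenases insert oxygen into small molecules, and they were listed together with FAD-binding and Rossmann-fold oxidoreductases. None of the 4 measured genes of this list was called with all libraries in limma. At an unadjusted p under 0.05, 2 were higher and 2 lower. Without CK-1 and T-1d-3, 1 was called higher and 1 lower. The FAD-binding gene EVM0008017 had 136, 167 and 112 FPKM at 1d, against 84.9, 71.0 and 67.4 FPKM in CK. It did not overlap between the groups, but its change of 0.87 ± 0.18 (adjusted p = 0.00106) stayed under 2-fold with all libraries and was 1.11 (adjusted p = 4.40e-04) without the 2. The flavin monooxygenase gene EVM0013062 had 9.23, 6.80 and 5.83 FPKM at 1d, against 7.61, 18.2 and 19.8 FPKM in CK. CK-1 lay among the 1d libraries, and the change was -0.88 ± 0.28 (adjusted p = 0.0162) with all libraries and -1.16 (adjusted p = 8.82e-04) without the 2.

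The same position of CK-1, near the 1d libraries and far below CK-2 and CK-3, bore on 3 further genes. TauD-type dioxygenases are iron enzymes that use 2-oxoglutarate, known in bacteria for the release of sulfite from taurine. The TauD-type gene EVM0008301 had 12.5, 7.74 and 8.08 FPKM at 1d, against 8.89, 32.7 and 33.0 FPKM in CK. The sugar transporter gene EVM0012432 had 19.5, 13.1 and 8.72 FPKM at 1d, against 11.2, 37.8 and 41.9 FPKM in CK. Their groups overlapped through CK-1. The changes of -1.13 ± 0.38 and -0.95 ± 0.41 missed the threshold with all libraries (adjusted p = 0.0227 and 0.0624), and those of -1.64 and -1.27 passed it without CK-1 and T-1d-3 (adjusted p = 4.72e-04 and 0.00346).

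The third of these was 1 of the pair of genes with a GTPase domain named for binding to the large ribosomal subunit of bacteria. EVM0009521 had 4.18, 3.27 and 1.35 FPKM at 1d, against 2.33, 19.0 and 16.3 FPKM in CK (-1.49 ± 0.50, adjusted p = 0.0217; -1.98, adjusted p = 3.36e-05, without the 2 libraries). EVM0012447 fell in both fits, with 0.501, 1.14 and 0.993 FPKM at 1d, against 2.81, 8.23 and 6.71 FPKM in CK (-1.80 ± 0.28, adjusted p = 9.95e-05; -2.23 without the 2). CK-1 was the lowest CK library of both genes, and only in EVM0009521 did it fall among the 1d values. So 1 of 2 GTPase genes fell with all libraries and 2 of 2 without CK-1 and T-1d-3. EVM0013062, EVM0008301, EVM0012432 and EVM0009521 were all called lower when CK-1 alone was left out.

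**Figure D4:**
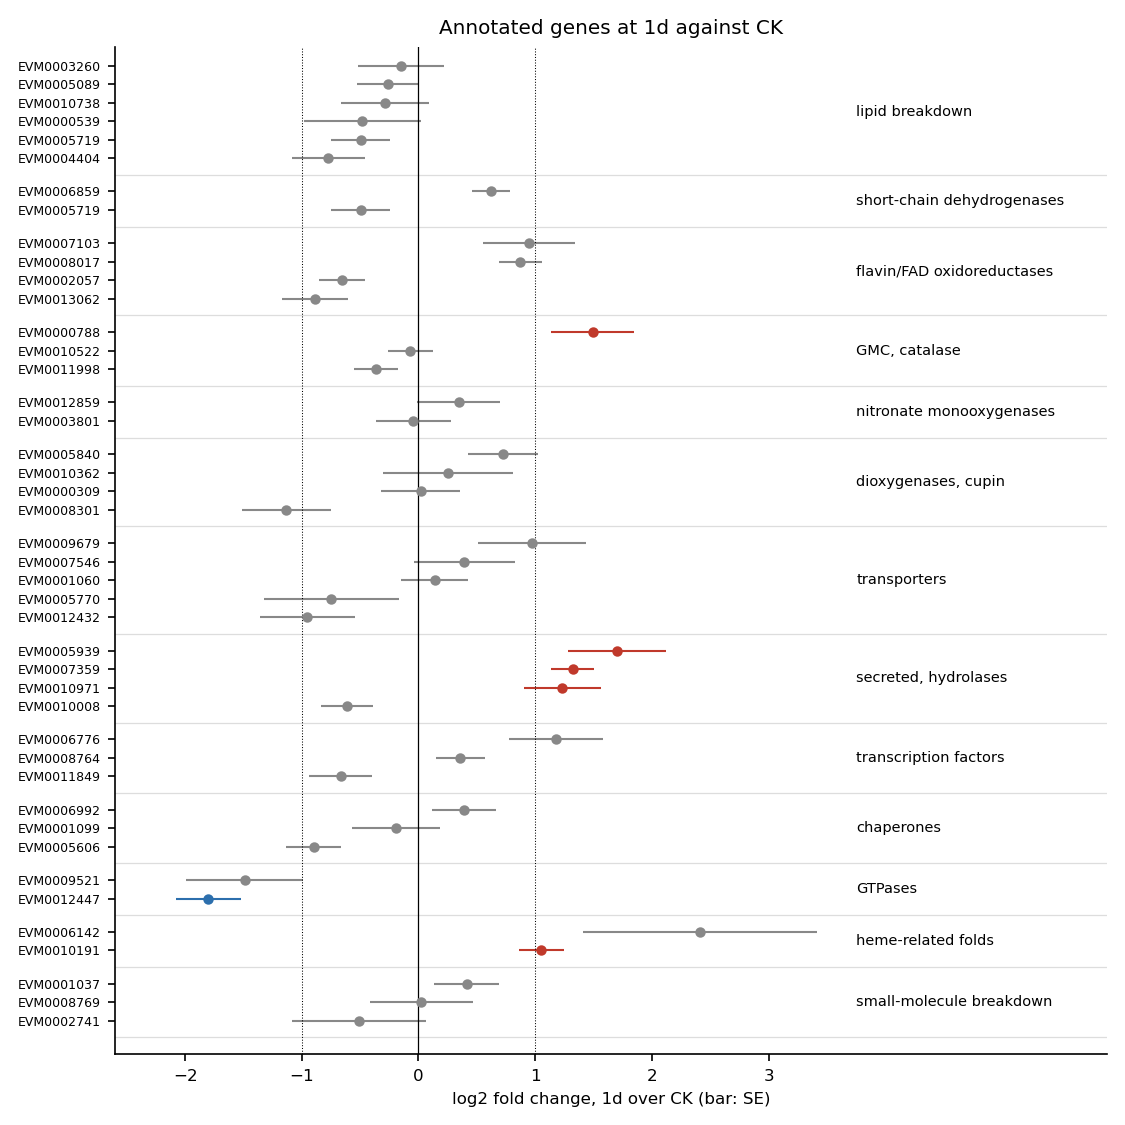
Points are log2 fold changes of 1d over CK from all libraries and bars their standard errors (3 libraries per group), for the annotated genes by group. Red points were called higher, blue points lower and grey points not called, and dotted lines mark a 2-fold change. The secreted proteins and hydrolases hold 3 of the red points, and the hemopexin gene EVM0006142 has the highest point of all and the widest bar.

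Heme-related folds gave 1 call, close to the 2-fold limit. Protoglobins are single-domain oxygen-binding globins first known from archaea. The protoglobin gene EVM0010191 had 121, 149.9 and 116 FPKM at 1d, against 47.4, 76.7 and 63.1 FPKM in CK. Its groups did not overlap, and its change of 1.05 ± 0.19 (adjusted p = 3.64e-04) was 0.94 without CK-1 and T-1d-3, just under 2-fold, as also without T-1d-2 or CK-1 alone (0.94 and 0.87). The hemopexin gene EVM0006142, of a fold that binds heme in blood plasma of vertebrates, had 151, 108 and 10.1 FPKM at 1d, against 6.999, 10.3 and 12.5 FPKM in CK. T-1d-1 and T-1d-2 were far above every CK library and T-1d-3 lay within CK, and the gene was called neither with all libraries (2.41 ± 1.00, adjusted p = 0.0559) nor without CK-1 and T-1d-3 (3.38, adjusted p = 0.0135). It was called without T-1d-3 alone (3.59, adjusted p = 0.00509), with the 14 libraries kept by the study (3.38, adjusted p = 1.46e-08) and with library weights (3.00, adjusted p = 3.92e-05).

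A gene for a bacteriorhodopsin-like protein, a family of membrane proteins with retinal as chromophore, gave another call at the limit. EVM0009931 had 87.1, 98.3 and 59.2 FPKM at 1d, against 27.1, 48.9 and 45.9 FPKM in CK (1.00 ± 0.24, adjusted p = 0.00271). Without the 2 libraries it was 0.95, and it was also lost without T-1d-1, T-1d-2 or CK-1 alone (0.74 at the lowest). The BAG domain, found in co-chaperones of Hsp70, marked EVM0005606, with 48.9, 51.1 and 62.7 FPKM at 1d, against 89.5, 111 and 104 FPKM in CK. Its change of -0.90 ± 0.24 was under 2-fold with all libraries and -1.09 (adjusted p = 0.006) without the 2.

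The annotated genes for lipid breakdown, a list drawn up for this comparison around the lipases that the study names, and those for short-chain dehydrogenases were not called at 1 d. Of 7 lipid genes listed, 6 are in the deposited table, and none of them passed (median log2 fold change -0.38; 0 higher and 1 lower at an unadjusted p under 0.05), nor without CK-1 and T-1d-3. Lipases release fatty acids from esters. The class 3 lipase gene EVM0000539 had 854, 1749 and 3385 FPKM at 1d, against 4697, 1702 and 1720.5 FPKM in CK. T-1d-3 and CK-1 were the highest libraries of their groups and the groups overlapped (-0.48 ± 0.50, adjusted p = 0.461). The GDSL lipase gene EVM0003260 had the same order, with 311, 417 and 833 FPKM at 1d, against 819.6, 413 and 437 FPKM in CK (-0.15 ± 0.37, adjusted p = 0.768). Of the alpha/beta hydrolase gene EVM0004404, 13.7, 15.1 and 32.1 FPKM were measured at 1d, against 42.2, 31.0 and 27.3 FPKM in CK (-0.77 ± 0.31, adjusted p = 0.0515), and it was called lower when T-1d-3 alone was left out (-1.14, adjusted p = 0.00462).

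Of 5 short-chain dehydrogenase genes listed, 2 are in the deposited table, and 1 of them, EVM0005719, was also on the lipid list. They differed in direction and stayed within 2-fold. EVM0006859 had 50.8, 62.0 and 39.2 FPKM at 1d, against 28.0, 36.3 and 32.1 FPKM in CK (0.62 ± 0.16, adjusted p = 0.0049), with no overlap between the groups. EVM0005719 had 299.7, 506 and 538 FPKM at 1d, against 917, 504 and 494 FPKM in CK (-0.50 ± 0.25, adjusted p = 0.12), with overlap. Nitronate monooxygenases oxidize nitro compounds such as alkyl nitronates. Their gene EVM0003801 had 22.2, 33.0 and 22.0 FPKM at 1d, against 21.1, 29.9 and 28.2 FPKM in CK, and EVM0012859 had 129, 209 and 116 FPKM at 1d, against 80.7, 139.8 and 135 FPKM in CK. Both overlapped between the groups (-0.04 ± 0.32 and 0.35 ± 0.36, adjusted p = 0.931 and 0.459). At an unadjusted p under 0.05, 1 short-chain dehydrogenase gene was higher and 0 nitronate monooxygenase genes passed in limma.

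The remaining annotated groups held no call with all libraries. Of 4 dioxygenase, carotenoid oxygenase-type and oxalate decarboxylase genes, 0 passed (1 higher and 1 lower at an unadjusted p under 0.05). Homogentisate 1,2-dioxygenase opens the ring of a breakdown product of tyrosine, and its gene EVM0000309 had 25.9, 49.0 and 72.8 FPKM at 1d, against 68.5, 36.6 and 35.6 FPKM in CK. T-1d-3 and CK-1 were the highest of their groups, and the ranges overlapped (0.02 ± 0.34, adjusted p = 0.975). The carotenoid oxygenase-type gene EVM0005840 had 45.7, 52.0 and 85.4 FPKM at 1d, against 57.5, 27.8 and 27.2 FPKM in CK (0.72 ± 0.30, adjusted p = 0.0547). The oxalate decarboxylase gene EVM0010362, for an enzyme that converts oxalate to formate, had 29.1, 35.7 and 57.5 FPKM at 1d, against 65.7, 23.6 and 22.3 FPKM in CK (0.25 ± 0.56, adjusted p = 0.742).

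Among 5 transporter genes, 0 passed (0 higher and 1 lower at an unadjusted p under 0.05), and 1 was lower without CK-1 and T-1d-3, the sugar transporter gene described above. The major facilitator genes EVM0005770 and EVM0009679 had 266, 229.5 and 90.7 and 11.2, 27.6 and 52.2 FPKM at 1d, against 138, 433 and 441 and 11.9, 11.8 and 13.9 FPKM in CK. Their 1d values spread widely (-0.75 ± 0.58 and 0.97 ± 0.46, adjusted p = 0.312 and 0.0929), and without T-1d-1 alone EVM0009679 was called higher (1.53). The abundant sugar transporter gene EVM0007546 had 821, 1315 and 1804 FPKM at 1d, against 1903, 675 and 668 FPKM in CK (0.39 ± 0.43, adjusted p = 0.489). Its CK-1 value exceeded every 1d value.

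Of the 3 measured genes on the transcription factor list, 0 passed (1 higher and 1 lower at an unadjusted p under 0.05). EVM0012109, whose annotation also names such activity, was not on the list and was called lower, as given below. The TEA/ATTS domain is the DNA-binding domain of regulators of development in yeasts and moulds, and its gene EVM0006776 had 88.6, 79.1 and 40.2 FPKM at 1d, against 24.5, 29.6 and 31.7 FPKM in CK. The groups did not overlap, with T-1d-3 the lowest 1d library (1.18 ± 0.41, adjusted p = 0.0249), and the gene was called higher without T-1d-3 alone (1.53, adjusted p = 0.00807) but not without both libraries (1.42, adjusted p = 0.0208). It was also called with the 14 libraries kept by the study (1.42, adjusted p = 2.25e-06) and with library weights (1.31, adjusted p = 3.28e-05). The homeobox gene EVM0011849 had 9.08, 11.96 and 16.2 FPKM at 1d, against 33.9, 14.2 and 16.01 FPKM in CK (-0.67 ± 0.27, adjusted p = 0.0506). Of 3 chaperone genes, 0 passed (0 higher and 1 lower at an unadjusted p under 0.05), and the small heat shock protein genes EVM0006992 and EVM0001099 changed by 0.39 ± 0.27 and -0.19 ± 0.38. Of 3 genes for small-molecule breakdown, 0 passed at either p, with changes of 0.41 ± 0.28 in the gene EVM0001037, 0.03 ± 0.44 in the EthD gene EVM0008769 and -0.51 ± 0.57 in EVM0002741.

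Of the 28 genes of the study's table of DEGs common to all times that are in the deposited table, 6 rose and 11 fell (8 and 16 without CK-1 and T-1d-3). Since that table was selected partly by this contrast, the count only describes it (6.5% of all genes were higher and 14.5% lower). EVM0009236 had 1138, 1166 and 394 FPKM at 1d, against 171, 289 and 284 FPKM in CK (1.73 ± 0.43, adjusted p = 0.00327), and EVM0007948 had 23.9, 26.2 and 8.91 FPKM at 1d, against 7.45, 7.995 and 6.25 FPKM in CK (1.20 ± 0.31, adjusted p = 0.00411). T-1d-3 was far under its partners in both, and without the 2 libraries the changes were 2.00 and 1.69. EVM0009236 was lost without T-1d-1, T-1d-2 or CK-1 alone (adjusted p 0.0154 to 0.0201), and EVM0007948 without T-1d-1, T-1d-2 or CK-3 alone (adjusted p 0.019 to 0.0277).

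Among the falls of that table, EVM0008261 had 13.6, 9.42 and 5.58 FPKM at 1d, against 15.1, 66.1 and 61.9 FPKM in CK, and EVM0007340 had 3.61, 2.51 and 2.73 FPKM at 1d, against 6.99, 20.2 and 18.3 FPKM in CK. CK-1 was the lowest CK library of both, and the groups of neither overlapped (-2.03 ± 0.43 and -1.92 ± 0.27, adjusted p = 0.00126 and 4.12e-05). Of the 83 genes of the table of the blue co-expression module that are in the deposited table, 5 rose and 5 fell (5 and 7 without the 2 libraries), against 6.5% and 14.5% of all genes, with a median log2 fold change of 0.06. EVM0005741 had 32.7, 49.1 and 57.1 FPKM at 1d, against 33.0, 15.1 and 17.2 FPKM in CK (1.10 ± 0.25, adjusted p = 0.00213), with CK-1 at the level of the lowest 1d library. EVM0012109, whose annotation names transcription factor activity, had 26.6, 37.8 and 49.0 FPKM at 1d, against 97.4, 75.4 and 73.9 FPKM in CK (-1.13 ± 0.18, adjusted p = 1.32e-04). The call of EVM0005741 was lost without T-1d-2, T-1d-3, CK-2 or CK-3 alone and that of EVM0012109 without T-1d-1 alone.

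New genes, assembled outside the genome annotation, fell more often than they rose. Of 115 tested, 30 fell and 0 rose (26.1% lower, against 13.1% of the 978 EVM genes tested and 14.5% of all), with 6 higher and 70 lower at an unadjusted p under 0.05 in limma. Their median log2 fold change was -0.76, against -0.02 for EVM genes. They were expressed at a low level, with a median of group means of 1.60 FPKM at 1d and 3.01 FPKM in CK, against 29.7 and 30.0 FPKM for EVM genes. The imbalance depended on the scaling: after quantile normalization 5 new genes were higher and 11 lower (median -0.19), after median centring 0 and 29, and without CK-1 and T-1d-3 2 and 36. Whether the use of strand entered the authors' counting is not given in the sources used here, so reads of a new gene and of one that overlaps it cannot be told apart.

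The libraries that lay farthest from their partners did so in genes of which only EVM0007207 was called against CK with all libraries. CK-1 departed most in EVM0009521 and in newGene_1753, with 13.4, 97.8 and 102 FPKM in CK, and in EVM0012145, with 94.6, 555 and 541 FPKM in CK. At 1d newGene_1753 had 39.7, 23.5 and 11.7 FPKM (-1.18 ± 0.67, adjusted p = 0.161) and was called lower without CK-1 alone (-2.11, adjusted p = 0.00443). EVM0012145 had 66.4, 70.7 and 329 FPKM at 1d, where T-1d-3 was far above its partners (-1.39 ± 0.75, adjusted p = 0.14), and it was called lower without both libraries (-2.98, adjusted p = 0.00133). T-1d-3 departed most in EVM0007207, EVM0006142 and EVM0003629. EVM0003629 had 14.3, 14.9 and 0 FPKM at 1d, against 6.73, 4.94 and 5.76 FPKM in CK, and since T-1d-3 was listed at 0, its change of -0.12 ± 0.71 (adjusted p = 0.911) became 1.298 (adjusted p = 0.00118) without the 2 libraries.

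To set the 1d levels beside the other times of PSI, 1d was compared with the mean of the 1h, 6h, 5d and 10d groups. A call against this mean can come from some of these times alone. Here 48 genes were higher and 64 lower (4.39% and 5.86% of 1093, and 10.2% together), and without CK-1 and T-1d-3 77 and 90 (7.08% and 8.27% of 1088). Without T-1d-1 alone 30 genes were higher. Every 1d library lay above all 15 other libraries in 27 genes (2.47%) and below all of them in 42 genes (3.84%).

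Several of the largest rises over CK were also peaks over the other times. EVM0003033 averaged 75.2 ± 16.8 FPKM in CK, 34.7 ± 2.36 at 1h, 163 ± 7.88 at 6h, 740.1 ± 59.98 at 1d, 478 ± 57.0 at 5d and 603 ± 27.2 at 10d (SD, n = 3 each). Its mean was lowest at 1h, highest at 1d and still high at 10d, and the 1d level was 1.87 ± 0.11 on the log2 scale above the mean of the other times (SE, adjusted p = 3.48e-08). EVM0012106 averaged 233 ± 49.2, 176 ± 17.0, 420.1 ± 17.4, 1395 ± 698, 417 ± 92.7 and 343 ± 20.3 FPKM over the same order, a peak at 1d (1.97 ± 0.24, adjusted p = 1.50e-05). EVM0008715 averaged 1433 ± 196, 2329 ± 885, 7565 ± 257, 11247 ± 3741, 3879.8 ± 556 and 3372 ± 159 FPKM, with T-1d-3 at the level of 6h (1.497 ± 0.23, adjusted p = 1.33e-04). After quantile normalization this difference of EVM0008715 from the other times was not called (0.90, adjusted p = 0.0539).

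EVM0012824 and EVM0006917 also had their highest mean at 1d. EVM0012824 averaged 73.6 ± 14.1 FPKM at 1d, against 15.03 ± 5.35, 21.2 ± 0.769, 36.4 ± 0.638 and 11.8 ± 0.705 FPKM at 1h, 6h, 5d and 10d. EVM0006917 averaged 317 ± 105 FPKM at 1d, against 81.8 ± 12.5, 105 ± 3.76, 124 ± 49.98 and 107 ± 5.33 FPKM. The differences from the other times were 1.87 ± 0.17 and 1.57 ± 0.20. By contrast, EVM0001276 averaged 261 ± 132 FPKM at 1d, against 347 ± 65.3, 429.6 ± 18.2, 199 ± 66.9 and 142 ± 9.24 FPKM at the other times, and its 1d level did not pass against the other times (-0.12 ± 0.27, adjusted p = 0.745).

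The 3 largest differences above the other times were in genes that were not called against CK with all libraries. EVM0007758 had 109, 74.6 and 11.3 FPKM at 1d, against 5.26, 17.5 and 18.2 FPKM in CK, and averaged 14.7 ± 9.99, 5.58 ± 1.00, 7.67 ± 3.49 and 2.05 ± 0.752 FPKM at 1h, 6h, 5d and 10d (2.78 ± 0.55, adjusted p = 7.95e-04). T-1d-3 lay within CK. The difference from the other times was lost without T-1d-1 or T-1d-2 alone, and that from CK passed without CK-1 and T-1d-3 (2.28, adjusted p = 0.00254). EVM0007889 had 159.6, 102 and 82.4 FPKM at 1d, against 30.9, 107 and 104 FPKM in CK and 22.4 ± 3.25, 42.0 ± 4.49, 21.9 ± 6.38 and 6.83 ± 0.615 FPKM at the other times (2.45 ± 0.30, adjusted p = 1.14e-05). EVM0009138 had 84.1, 44.0 and 54.0 FPKM at 1d, against 18.1, 42.8 and 43.8 FPKM in CK and 14.2 ± 0.625, 27.7 ± 2.08, 10.2 ± 3.56 and 4.84 ± 0.824 FPKM at the other times (2.21 ± 0.24, adjusted p = 4.66e-06). In these last 2 genes CK-2 and CK-3 were as high as or near the 1d libraries, and the levels at the other times were lower.

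Among the falls, 2 courses were seen. In the first, the means at 1h and 6h were far closer to CK than that at 1d, and the level was still low at 5d and 10d. EVM0002080 averaged 390.2 ± 27.7 FPKM in CK, 322 ± 31.5 at 1h, 481 ± 22.8 at 6h, 26.6 ± 9.76 at 1d, 63.9 ± 18.7 at 5d and 56.1 ± 3.44 at 10d (-2.53 ± 0.16 against the other times, adjusted p = 3.48e-08). EVM0011191 averaged 863 ± 4.96, 574 ± 76.8, 804 ± 5.86, 109 ± 25.8, 178 ± 53.5 and 157 ± 3.67 FPKM in the same order (-1.63 ± 0.15, adjusted p = 6.95e-07). EVM0004925, EVM0005779, EVM0003180 and EVM0012358 followed this course as well, with differences from the other times of -1.88 ± 0.12, -1.80 ± 0.17, -2.08 ± 0.28 and -1.81 ± 0.19. EVM0007167, in contrast, averaged 145 ± 46.3 FPKM at 1h, 93.5 ± 8.27 at 6h, 42.0 ± 5.33 at 1d, 50.2 ± 15.2 at 5d and 30.5 ± 2.39 at 10d, and its 1d level did not pass against the other times (-0.66 ± 0.19, adjusted p = 0.0134).

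In the second course, the group mean was lowest at 1d and high later. EVM0003088 averaged 170.4 ± 95.2 FPKM in CK, 174 ± 64.4 at 1h, 177 ± 2.29 at 6h, 15.1 ± 10.8 at 1d, 561 ± 169 at 5d and 495 ± 26.7 at 10d. This was the largest difference below the other times (-4.41 ± 0.38, adjusted p = 4.71e-07). EVM0007207 averaged 24.2 ± 32.1 FPKM at 1d, against 105 ± 29.2, 87.6 ± 13.8, 259 ± 211 and 1042 ± 40.5 FPKM at 1h, 6h, 5d and 10d (-3.97 ± 0.54, adjusted p = 4.03e-05). The new gene newGene_1026 had 3.54, 8.36 and 31.7 FPKM at 1d, against 22.8, 47.9 and 47.8 FPKM in CK, and averaged 31.0 ± 2.54, 85.2 ± 14.3, 180.4 ± 79.1 and 282 ± 51.1 FPKM at the other times (-3.26 ± 0.40, adjusted p = 1.50e-05). T-1d-3 overlapped CK in this gene and also the 1h libraries (32.8, 32.0 and 28.1 FPKM). In both EVM0007207 and newGene_1026, T-1d-3 lay far above its partners. The fall of newGene_1026 against CK (-1.78 ± 0.51, adjusted p = 0.0088) was lost without T-1d-1, T-1d-2, CK-2 or CK-3 alone.

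The genes with the neighbouring numbers newGene_1025 and newGene_1027, added after their values were seen, also had their lowest group mean at 1d and their highest ones at 5d and 10d. newGene_1027 had 3.27, 3.56 and 4.59 FPKM at 1d, against 10.4, 16.8 and 9.72 FPKM in CK, and all 1d libraries were below all 15 others (-2.38 ± 0.16 against the other times, adjusted p = 4.47e-08). newGene_1025 had 4.26, 6.76 and 29.3 FPKM at 1d, against 21.1, 29.1 and 22.3 FPKM in CK, with T-1d-3 above its CK libraries (-3.23 ± 0.44 against the other times, adjusted p = 4.03e-05; -1.22 ± 0.56 against CK, adjusted p = 0.0831). Whether these 3 genes lie next to each other is not given in the sources used here.

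**Figure D5:**
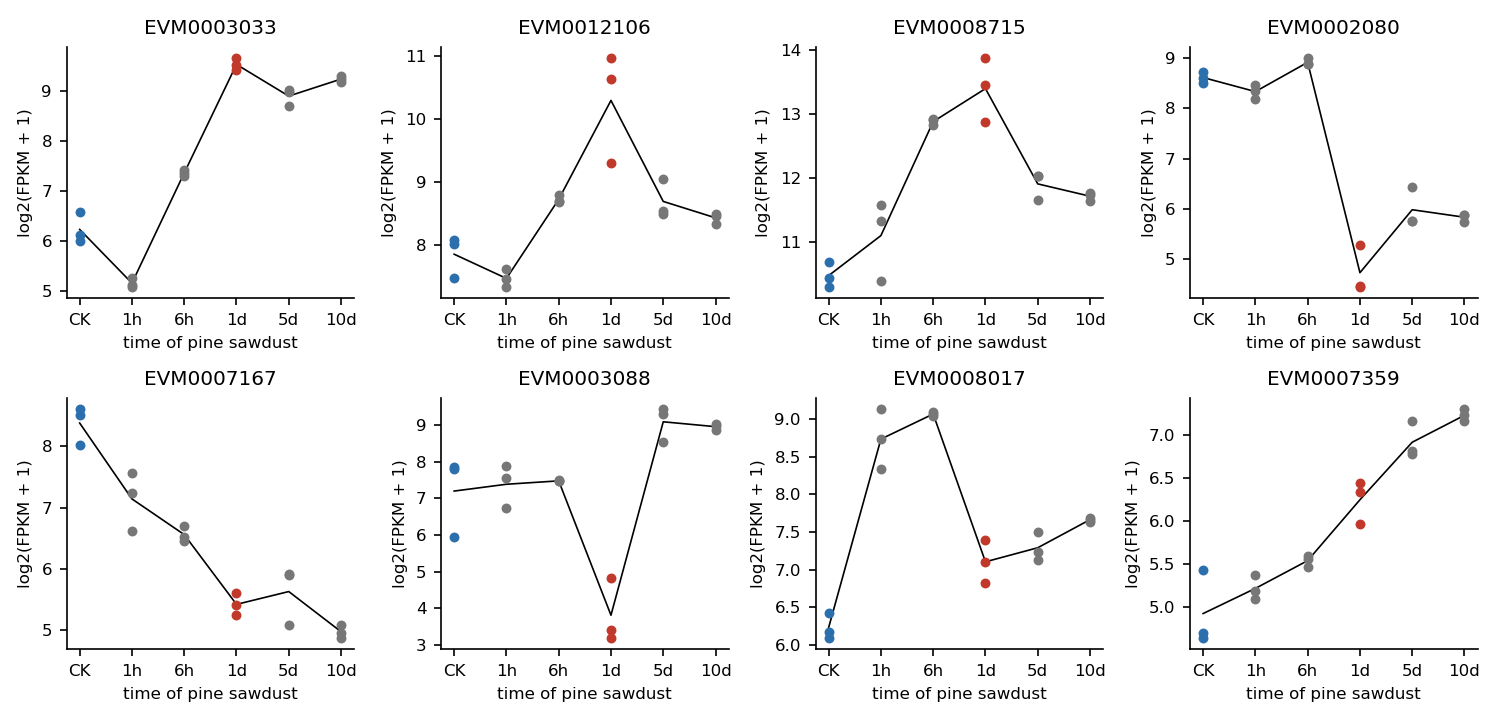
Levels of 8 genes are shown as log2(FPKM + 1) on the y axis over the groups CK, 1h, 6h, 1d, 5d and 10d on the x axis, which is not to scale in time. Each point is a library (red 1d, blue CK, grey the other times), the line joins the group means on this scale, and each panel has its own y range. EVM0012106 peaks at 1d, EVM0002080 drops between 6h and 1d and stays low, and EVM0003088 is low at 1d alone, with means of 15.1 FPKM at 1d and 561 FPKM at 5d.

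Some annotated genes that were not called against CK were lower than at the other times of PSI. Of the 83 genes of the blue module table, 13 were lower at 1d than the mean of the other times and 0 higher, against 5.86% lower and 4.39% higher among all genes (limma; at an unadjusted p under 0.05, 0 of the 83 were higher and 54 lower, and 371 of all 1093 genes were lower). The count lower was 21 without CK-1 and T-1d-3, 8 after quantile normalization and 11 after median centring. That module had been picked by the study, on these libraries, because its genes followed the time of PSI. Its table holds the module genes that were DEGs at 10d, and 10d is part of the mean of the other times. The count therefore describes that choice of genes and is no independent result. The Rossmann-fold oxidoreductase gene EVM0002057 had 15.4, 24.03 and 21.0 FPKM at 1d, against 41.4, 29.2 and 26.4 FPKM in CK, and averaged 43.7 ± 8.81, 72.6 ± 2.12, 82.9 ± 15.7 and 140.3 ± 3.46 FPKM at 1h, 6h, 5d and 10d. All 1d libraries were below the 15 others (-1.92 ± 0.15, adjusted p = 2.69e-07). The homogentisate dioxygenase gene EVM0000309 averaged 49.2 ± 23.5 FPKM at 1d, against 87.7 ± 31.4, 187 ± 0.690, 122 ± 39.1 and 244 ± 3.20 FPKM (-1.67 ± 0.27, adjusted p = 1.81e-04). The FAD-binding gene EVM0008017 averaged 138 ± 27.6 FPKM at 1d, against 436 ± 118, 536 ± 10.7, 157 ± 21.3 and 202 ± 3.82 FPKM, a return towards CK after its level at 6h (-1.09 ± 0.14, adjusted p = 3.10e-05; -0.94 without CK-1 and T-1d-3, where it was not called).

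The lipase genes EVM0000539 and EVM0003260 averaged 1996 ± 1283 and 520.4 ± 276 FPKM at 1d, against 9641 ± 185 and 1984 ± 74.8 FPKM at 10d. They missed the threshold against the mean of the other times with all libraries and were called lower without CK-1 and T-1d-3 (-1.63 and -1.43, adjusted p = 0.00127 and 3.22e-04; with all libraries -1.14 ± 0.39 and -1.03 ± 0.29, adjusted p = 0.029 and 0.01). Both were also called lower without T-1d-3 alone, with the 14 libraries kept by the study and with library weights, and EVM0003260 without CK-1 alone and with the stricter filter on low values. The 10d level is only a part of the mean of the other times, so these calls do not show that 1d was lower than each time. The secreted-protein genes that rose over CK did not pass the test against the other times. EVM0007359 averaged 30.4 ± 10.1 FPKM in CK, 36.3 ± 3.69 at 1h, 45.6 ± 2.19 at 6h, 75.7 ± 12.8 at 1d, 120.5 ± 18.2 at 5d and 149 ± 7.16 at 10d, so 1d lay on a rising course (0.02 ± 0.15, adjusted p = 0.909). EVM0000153, chosen after its values were seen, had 841, 721 and 589 FPKM at 1d, against 284, 269 and 283 FPKM in CK, and averaged 232 ± 45.6, 416 ± 7.94, 126 ± 26.6 and 87.5 ± 7.15 FPKM at the other times, a level at 1d above all 15 other libraries (1.98 ± 0.14, adjusted p = 5.68e-08).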

How the data were processed

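RNA-seq libraries of S. latifolia mycelium were used as deposited, with 3 libraries per group named biological replicates by the study. The authors computed the deposited FPKM values. Reads were mapped with HISAT2 and assembled with StringTie, duplicates were removed and expression was estimated with RSEM, and Bowtie 0.12.2 also stands in the submitters' processing notes. No genome build is given in the sources used here. Since the table's header gives no unit, its values were compared with FPKM columns in the study's tables and were equal (relative tolerance 1e-04).

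FPKM values were transformed to log2(FPKM + 1), so fold changes understate those of low genes. A gene was tested where 2 or more of the 18 libraries reached 1 FPKM (1093 of 1100). limma 3.58.1 in R 4.3.3 fitted 6 groups with mean-dependent prior variance, and p-values were adjusted over all genes tested. The contrasts were 1d minus CK and 1d minus the mean of 1h, 6h, 5d and 10d. Scripts were tested on simulated data. Figures used Python 3.11.15, pandas 2.3.3 and matplotlib 3.10.9.

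Named genes were the 12 largest rises and 12 largest falls against CK among genes called without overlap between the groups, annotated genes called with all libraries or without CK-1 and T-1d-3, genes that the text of the paper names, the 3 largest differences in each direction among those called against the other times, the 3 most abundant called genes, and the 3 genes in which CK-1 and in which T-1d-3 lay farthest from its partners. A further 26 genes, mostly members of the lists, were added after their values were seen. Annotation came only from the study's tables, since 0 identifiers matched the reference gene table of another strain. The 2 genes for cytochromes P450 among the lists were not analysed here, as they were not among the 1100 genes. Members and lists were chosen with earlier results of these data known. Alternatives were fits without CK-1 and T-1d-3, with the 14 libraries kept by the study, with only the 6 libraries, without each library in turn, with library weights, with quantile or median scaling, other filters, another pseudocount, other thresholds, and the replicate number as a block.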

Additional observations from a re-analysis of the deposited data

Results flagged for a closer look

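Genes named in the report are listed here where the 1d level differed from the mean of the 1h, 6h, 5d and 10d groups. The calls are those of limma over the 18 libraries, at an adjusted p under 0.01 and over 2-fold. This held for 34 of the named genes. Values are log2 levels at 1d minus that mean. A call against the mean does not show a difference from each of the times. EVM0008017, for example, had 136, 167 and 112 FPKM at 1d and 150, 180 and 140 FPKM at 5d.

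The level at 1d was above the other times in 13 of them. Without described family, EVM0003033 differed by 1.87, EVM0012106 by 1.97, EVM0012824 by 1.87, EVM0006343 by 1.95, EVM0006917 by 1.57, EVM0013009 by 1.53, EVM0008715 by 1.497, EVM0000336 by 1.36 and EVM0007108 by 1.04. EVM0007758 differed by 2.78, EVM0007889 by 2.45, EVM0009138 by 2.21 and EVM0000153 by 1.98. Single libraries bore on 3 of these calls. EVM0000336 was not called without T-1d-1, T-1d-2 or T-1d-3 alone, EVM0007758 not without T-1d-1 or T-1d-2, and EVM0007108 not without T-1d-1. After quantile normalization EVM0008715 (0.90, adjusted p = 0.0539), EVM0000336 (1.27, adjusted p = 0.0104) and EVM0007108 (0.63) were not called, nor was EVM0000336 after median centring (adjusted p = 0.0104).

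The level at 1d was below the other times in 21. The differences were -1.94 in EVM0012313, -2.53 in EVM0002080, -1.88 in EVM0004925, -2.08 in EVM0003180, -1.80 in EVM0005779, -1.63 in EVM0011191 and -1.81 in EVM0012358, which also fell against CK. Genes high at 5d or 10d were EVM0003088 at -4.41, EVM0007207 at -3.97, newGene_1026 at -3.26, newGene_1025 at -3.23, newGene_1027 at -2.38 and EVM0012109 at -1.26. EVM0012145, with its highest mean at 6h (1933 ± 41.9 FPKM), was at -2.25, and it was not called without T-1d-1 or T-1d-2 alone or after quantile normalization (adjusted p = 0.0135).

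Annotated genes below the other times were those for a Rossmann-fold oxidoreductase (EVM0002057, -1.92), homogentisate dioxygenase (EVM0000309, -1.67), an EthD domain protein (EVM0008769, -1.42), a BAG domain protein (EVM0005606, -1.15), a short-chain dehydrogenase (EVM0005719, -1.13), an FAD-binding protein (EVM0008017, -1.09) and a homeobox protein (EVM0011849, -1.01). Calls of EVM0005719, EVM0008769 and EVM0011849 were lost without T-1d-1 alone, and that of EVM0008017 without T-1d-3 alone and without CK-1 and T-1d-3. After quantile normalization 5 of these 7 genes were not called: EVM0005606 (-0.94), EVM0005719 (-0.83), EVM0008017 (-0.83), EVM0008769 (-1.14, adjusted p = 0.0176) and EVM0011849 (-0.92, adjusted p = 0.016). EVM0011849 was not called after median centring either (-0.95).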

How the results depend on the processing

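For 1d against CK, the 71 rises and 158 falls changed by less than 1.5 times under most settings. Fitting only the 6 libraries of 1d and CK gave 33 rises, and 123 falls. In that fit 16 named genes were not called: EVM0013009, EVM0001276, EVM0007047, EVM0000336, EVM0007207, EVM0010191, EVM0000788, EVM0009931, EVM0010971, newGene_1026, EVM0005939, EVM0009236, EVM0007948, EVM0008261, EVM0012109 and EVM0005741. Quantile normalization lost 2 of the 41 named calls against CK and 9 of the 34 against the other times. A fold threshold of 1.5 gave 118 rises and 259 falls. With 1 library left out in turn, there were 54 to 81 rises and 145 to 175 falls. For 1d against the mean of the other times (48 higher, 64 lower), leaving out CK-1 and T-1d-3 gave 77 higher, the 14 libraries kept by the study 74, and a fold threshold of 1.5 gave 96 higher and 154 lower. With 1 library left out there were 30 to 64 higher, the lowest without T-1d-1, and 53 to 87 lower.

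The median log2 fold change of all genes against CK, -0.086, was -0.13 without CK-1 and T-1d-3 and with the 14 kept libraries, 0.082 after quantile normalization, -0.046 after median centring and -0.15 to -0.052 with 1 library left out. Of the 78 named genes, 7 against CK and 18 against the other times changed sign under 1 or more of the alternatives, and none of these was called in that contrast with all libraries. EVM0003629, at -0.12 on the log2 scale against CK, was 1.298 without CK-1 and T-1d-3 and with the 14 kept libraries, and 1.20 without 1d replicate 3, the library in which it is listed at 0; with 1 library left out in turn it ran between -0.79 and 1.20. Library weights, no filter, the stricter filter (at least 3 libraries with 5 FPKM or more), a pseudocount of 0.1 and an adjusted p threshold of 0.05 kept the 4 counts within 1.5 times.

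The replicate number as a block gave 67 rises and 159 falls against CK, and 45 and 61 against the other times. Deviations from the group means of same-numbered 1d and CK libraries had an r of -0.47, 0.08 and -0.38. Deviations within a group of 3 libraries depend on each other. These r values therefore cannot show whether same-numbered libraries were handled together. Under the block EVM0010971 against CK, and EVM0000336 and EVM0012145 against the other times, missed the threshold. Read counts per gene are not shown by FPKM values, so the precision that counting allows in genes of low level was not computed.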
